A study of Mus musculus with 11 samples.

Results

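The regions described here were open in alveolar macrophages of naive lungs, held no peak in either tumour group, and lay away from the ends of genes. Peaks from the naive, day 15 and day 30 lists were merged wherever they shared at least 1 bp. A region was kept when it held naive peaks only and lay more than 1000 bp from both ends of every RefSeq gene on mm10. The rule left 3176 regions of 16069 in all, and of 14615 regions with a naive peak. Every one of the 3176 consisted of 1 naive peak.

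The assay was ATAC-seq, where a transposase cuts accessible DNA and leaves adapters behind. The cells were tissue-resident alveolar macrophages sorted from lungs of C57BL/6 mice, whose age and sex the labels do not give. The naive group had 4 samples and received no tumour cells. The day 15 group had 4 samples and the day 30 group 3, from mice given KP or KP-GFP cells through the tail vein and harvested 15 or 30 days later. KP names a mouse lung tumour line, so these lungs carried foci of a transplanted line and not tumours that arose in place. Which samples received cells with GFP, the sort markers, and whether animals were pooled are not given in the sources used here. There was 1 peak list for each group, so no value has a replicate and no test between groups was possible. Peaks numbered 14731 in naive, 10861 in day 15 and 3352 in day 30 macrophages. Their depths, recovered from the peak caller's own background, were 39.2, 93.5 and 82.2 tags per 10 kb, so both tumour lists were the deeper ones. A missing peak can mean that fewer cells were open at a site or that each cell had less signal there, and bulk lists cannot tell these apart.

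Of 30 marker genes of alveolar macrophages, 16 had a naive peak within 1000 bp of an end, Pparg, Fabp5, Itgax, Csf2ra and Csf2rb among them. Siglecf, Car4, Fabp4, Chil3, Plet1 and Marco, which also define these cells, had no naive peak there. In the day 15 list 11 of the 30 genes had a peak within 1000 bp of an end, and in the day 30 list 2 had one. Of 75 marker genes of other cell types, 5 had such a peak in the naive list, 5 in the day 15 list and 1 in the day 30 list. The 5 naive ones were Cd3d, Cd2, S100a8, Itgam and Xcr1, while the markers of B cells (8), of lung epithelium and KP tumour (14) and of endothelium and fibroblasts (12) had 0.

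Open regions far from gene ends are mostly enhancers, stretches where transcription factors bind and act on a promoter at a distance, or alternative start sites inside a gene. In macrophages the factor PU.1 opens many such sites together with C/EBP, AP-1 and, in the lung, PPARG, which drives the alveolar programme of lipid handling. Distal sites differ more between tissues than promoters do, and the surroundings of a macrophage are known to shape which of them are open.

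Some of these regions covered an alternative start of transcription that RefSeq places inside a gene, and for those the sequence is at hand. Of the 3176 regions, 137 overlapped such a window, reaching from 250 bases before to 50 after an annotated start. The 6 stretches below are where the peak and the window overlap, on build GRCm38.p6 (mm10), 5′ to 3′ on the gene's strand, with the sequence from RefSeq. Pparg and Aim2 are shown for their place in macrophage biology and were chosen after their values were seen. The other 4 are the strongest regions that covered at least 200 bases of a window. Capitals mark matches to the motifs searched here, on either strand: TTGCNNAA for C/EBP, GAGGAAGT for PU.1, TGANTCA for AP-1, TGCTGANNN for Maf, CACGTG for the E-box, GGGGCGGGG for KLF and SP factors and AGGTCA for nuclear receptors.
Pparg, chr6:115421816-115422112, plus strand: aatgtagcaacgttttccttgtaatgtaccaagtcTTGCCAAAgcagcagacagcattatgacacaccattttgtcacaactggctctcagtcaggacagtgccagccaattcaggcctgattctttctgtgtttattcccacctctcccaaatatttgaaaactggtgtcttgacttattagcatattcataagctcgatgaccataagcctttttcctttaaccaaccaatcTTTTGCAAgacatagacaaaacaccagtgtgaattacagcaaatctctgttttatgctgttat
Aim2, chr1:173420403-173420653, plus strand: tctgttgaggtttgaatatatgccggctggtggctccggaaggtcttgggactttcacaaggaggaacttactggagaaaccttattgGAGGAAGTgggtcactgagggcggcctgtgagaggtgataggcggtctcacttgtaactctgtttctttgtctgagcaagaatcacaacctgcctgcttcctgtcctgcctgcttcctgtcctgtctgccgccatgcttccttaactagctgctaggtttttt
Arhgap29, chr3:121967598-121967855, plus strand: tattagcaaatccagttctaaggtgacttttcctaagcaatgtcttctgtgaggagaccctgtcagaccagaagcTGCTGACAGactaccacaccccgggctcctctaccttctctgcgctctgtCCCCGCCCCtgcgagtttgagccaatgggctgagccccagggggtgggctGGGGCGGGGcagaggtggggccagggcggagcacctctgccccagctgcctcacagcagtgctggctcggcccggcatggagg
Mtm1, chrX:71214759-71215055, plus strand: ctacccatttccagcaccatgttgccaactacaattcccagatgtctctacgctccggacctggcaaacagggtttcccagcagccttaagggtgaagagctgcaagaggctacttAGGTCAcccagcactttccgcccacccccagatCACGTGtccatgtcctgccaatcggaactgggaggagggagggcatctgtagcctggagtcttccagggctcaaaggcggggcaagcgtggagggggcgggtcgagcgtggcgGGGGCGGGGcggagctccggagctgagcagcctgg
Zer1, chr2:30124562-30124860, minus strand: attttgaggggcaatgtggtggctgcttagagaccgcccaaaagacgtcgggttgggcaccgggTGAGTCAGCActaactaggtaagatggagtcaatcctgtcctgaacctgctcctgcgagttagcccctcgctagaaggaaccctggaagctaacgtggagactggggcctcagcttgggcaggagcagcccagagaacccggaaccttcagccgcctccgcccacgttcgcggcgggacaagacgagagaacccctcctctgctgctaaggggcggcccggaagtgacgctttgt
Cryzl2, chr1:157458319-157458617, plus strand: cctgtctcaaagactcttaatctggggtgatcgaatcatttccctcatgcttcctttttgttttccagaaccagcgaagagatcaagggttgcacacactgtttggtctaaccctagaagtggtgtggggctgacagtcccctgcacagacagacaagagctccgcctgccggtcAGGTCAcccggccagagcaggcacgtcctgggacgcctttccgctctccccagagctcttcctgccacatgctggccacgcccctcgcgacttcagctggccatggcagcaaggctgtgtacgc

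The Pparg stretch is poor in G and C (39.7%) and holds 2 CpG, and both of its capital runs match C/EBP, a family that acts with PPARG in macrophages and fat cells. Its peak, chr6:115421690-115422112, reached 16 tags in the naive list, a fold of 7.66 over local background. It covers the RefSeq start at 115422066, 60.8 kb inside the nearer end of the gene, and the nearest day 15 peak was 89.4 kb away. A weaker naive-only peak of 9 tags lay at chr6:115424411-115424610, and the naive peak at the end of Pparg itself, also 9 tags, had no counterpart in either tumour list. The gene ends at 115490404, and a region past that end, chr6:115511484-115511972, had 23, 15 and 14 tags in the naive, day 15 and day 30 lists. All 3 naive peaks in or at the end of this gene, the regulator that defines the alveolar macrophage, were in the naive list alone. Such an outcome was common at these pileups. Away from gene ends, 79.2% of naive regions with 6 to 9 tags and 31.7% with 16 to 19 had no tumour peak. At gene ends on autosomes, 70.3% of those with 6 to 9 tags had none.

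The Aim2 stretch, at a start of the gene for a cytosolic DNA sensor that builds an inflammasome, holds 1 match to PU.1 and had a naive peak of 17 tags. Its nearest day 15 peak was 1.11 kb away. The Arhgap29 stretch, with a peak of 19 tags, holds 2 KLF and SP matches and 1 Maf match. Mtm1, an X-linked gene for a lipid phosphatase, had 18 tags over a stretch with an E-box, a KLF and SP match and a nuclear receptor match. In Zer1 (20 tags) the AP-1 and Maf matches overlap in a single run of capitals. Cryzl2 reached 21 tags and holds 1 nuclear receptor match. These 4 are GC-rich, between 57.9% and 62.8%, unlike the Pparg stretch.

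The regions were chosen by the peak calls of all 3 lists, so their naive strength and their share of naive regions are descriptions. The summit pileup, the number of tags stacked at the highest point of the peak, ran from 6 to 29 with a median of 12 (quartiles 10 and 14), and 95% of the regions reached 19 tags or fewer. Naive regions away from gene ends that also had a day 15 peak, and none at day 30, had a median of 16 (quartiles 12 and 20, highest 51), and those in every list a median of 25 (quartiles 19 and 31, highest 122). The naive-only regions were thus the low part of the naive range, though the middle parts of the distributions overlapped. The median fold over background was 5.75 against 6.88 for naive and day 15 regions and 8.77 for regions in every list. Widths of the merged regions had medians of 254, 379 and 529.5 bp. A region with a tumour peak spans that peak as well, so the merging itself widens it. These widths do not describe the naive peaks alone.

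**Figure D1:**
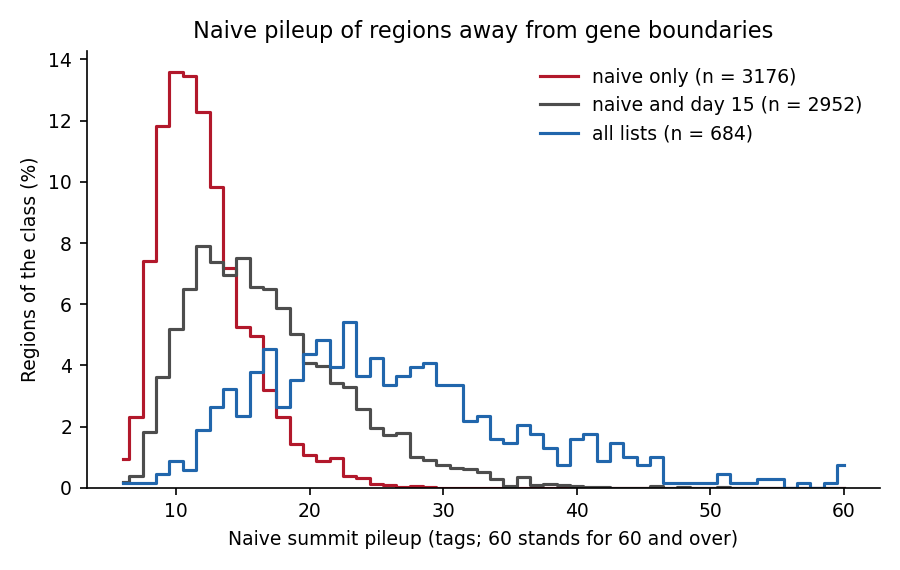
Share of regions (%) at each naive summit pileup (tags) for naive-only regions, naive regions with a day 15 peak, and regions in all lists, all over 1000 bp from gene ends. The naive-only curve ends at 29 tags, while the curve for all lists runs to 122 tags, drawn at 60.

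The edges of the rule were narrow. The members nearest to a gene end lay 1004 bp from Klhl17, 1004 bp from Rap2b and 1005 bp from Gm41308, and the naive-only regions just left out lay 999, 999 and 992 bp from Gm39023, Zc3h18 and Gm12977. The members nearest to a day 15 peak missed it by 12 bp near Tomm20, by 32 bp near Acot7 and by 35 bp near Mrc1, the mannose receptor. Regions near Ppp1r12c and Ppp1r1c shared 6 bp with a day 15 peak and were not counted.

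Of the 6855 naive regions away from gene ends, the 3176 members made up 46.3%. At gene ends 1998 of 7760 naive regions (25.7%) had no tumour peak. By time, 3219 of the 6855 (47.0%) had no day 15 peak and 6128 (89.4%) no day 30 peak. Of the 3219, 43 had a day 30 peak, so nearly all regions missing at day 15 were missing at day 30.

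Weak naive peaks made up most of the members. Of naive regions away from gene ends with 6 to 9 tags, 715 of 903 (79.2%) were members. The share was 67.1% at 10 to 12 tags, 49.9% at 13 to 15, 31.7% at 16 to 19 and 14.6% at 20 to 24. At 25 tags or more it was 1.59% (11 of 692). The share fell through every step of pileup.

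Within a decile of naive strength, taken over all naive regions, the share without a tumour peak was higher away from gene ends than at gene ends from decile 1 to decile 9. In the weakest decile the shares were 76.5% (95% Wilson interval 73.6 to 79.2) and 70.2% (66.4 to 73.8), and in decile 5 49.1% (45.6 to 52.6) and 37.1% (33.5 to 40.8). In decile 8 they were 13.7% (11.1 to 16.8) and 6.84% (5.37 to 8.68). The intervals did not overlap in deciles 2 to 8. In the strongest decile 0 of 261 regions away from gene ends were members (interval 0 to 1.45), and at gene ends 2 of 1201 (0.167%) had no tumour peak. All intervals here cover counting error over regions within these lists and not the spread between mice.

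**Figure D2:**
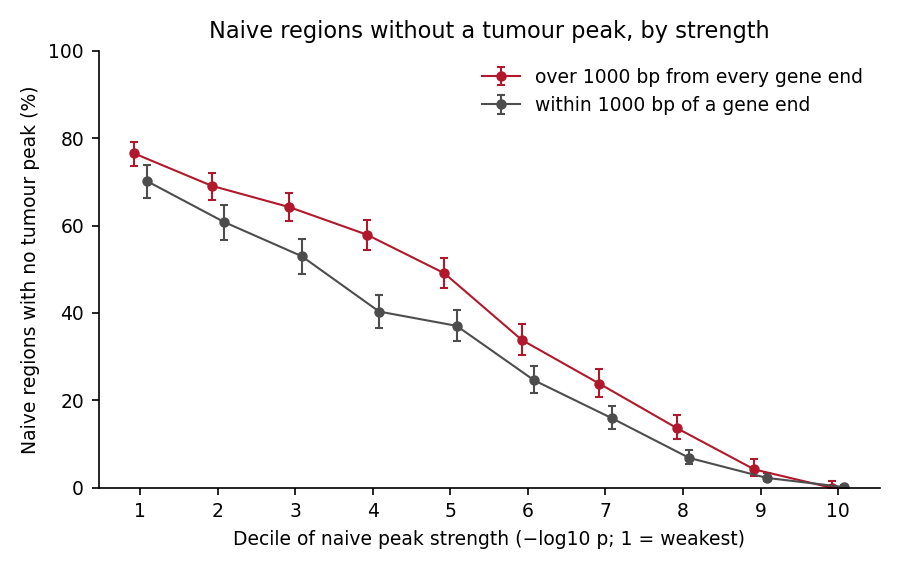
Share (%) of naive regions with no tumour peak by decile of naive peak strength (−log10 of the p-value, 1 is weakest), over and within 1000 bp of gene ends; bars are 95% Wilson intervals. The share falls from 76.5% to 0% away from gene ends and from 70.2% to 0.167% at gene ends.

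The day 15 list had 2.38 times the depth of the naive list. Scaled to the day 15 depth, the members' naive pileups have a median of 28.6 tags. Of the 3176, 3072 (96.7%) would stand at or above the median day 15 peak of 19 tags. This share follows from the naive calls that chose the members, since the lowest naive pileup, 6 tags, already scales to 14.3. It is a description and bears on no reason for the missing peaks. Naive regions that did have a day 15 peak were lower in that list for their depth. Over 3636 such regions away from gene ends, the day 15 excess over background per unit of depth was 0.44 of the naive one at the median (quartiles 0.36 and 0.54), and below 1 in 99.4%. At day 30 it was 0.30 over 727 regions. Signal per tag was therefore lower in the tumour lists across shared regions, and the part of this in the members' missing peaks was not tested.

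By position, 1847 members (58.2%, 56.4 to 59.9) lay inside a protein-coding gene, 255 (8.03%) inside a long non-coding RNA gene and 1065 (33.5%) between genes. Naive regions with a day 15 peak were inside a protein-coding gene in 61.2% (59.5 to 63.0) and regions in every list in 62.7% (59.0 to 66.3). Exon and intron positions were not analysed here. The median distance to the end of a protein-coding gene was 18415 bp for members and 16854.5 bp for naive and day 15 regions. Members were spread over upstream and downstream flanks: 461 of 1035 outside their nearest gene (44.5%) lay upstream, against 43.1% of naive and day 15 regions. In 27 members (0.850%) the nearest protein-coding gene was over 500 kb away.

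Overlap with annotated internal starts differed more between the classes than position in genes did. Any shared base counted, and a wider region meets a window more easily. The merged regions had median widths of 254 bp (members), 379 bp (naive and day 15) and 529.5 bp (every list). The part of width in the shares below was not tested, and the split by naive strength does not remove it. The 137 members over a start window made up 4.31% (3.66 to 5.08), against 279 of 2952 naive and day 15 regions (9.45%, 8.45 to 10.6) and 141 of 684 regions in every list (20.6%, 17.8 to 23.8). In the weakest quintile of naive strength the shares of members and of naive and day 15 regions were 4.43% and 6.33%, and their intervals overlapped. In quintiles 2, 3 and 4 the members stood at 3.93%, 3.84% and 5.70% against 6.71%, 9.98% and 9.73%, with overlapping intervals in quintiles 2 and 4, and in the strongest at 4.20% (1.81 to 9.46) of only 119 members against 11.6% (9.59 to 14.1). Member shares stayed between 3.84% and 5.70% at every strength, while those of persisting regions were larger in the stronger quintiles.

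**Figure D3:**
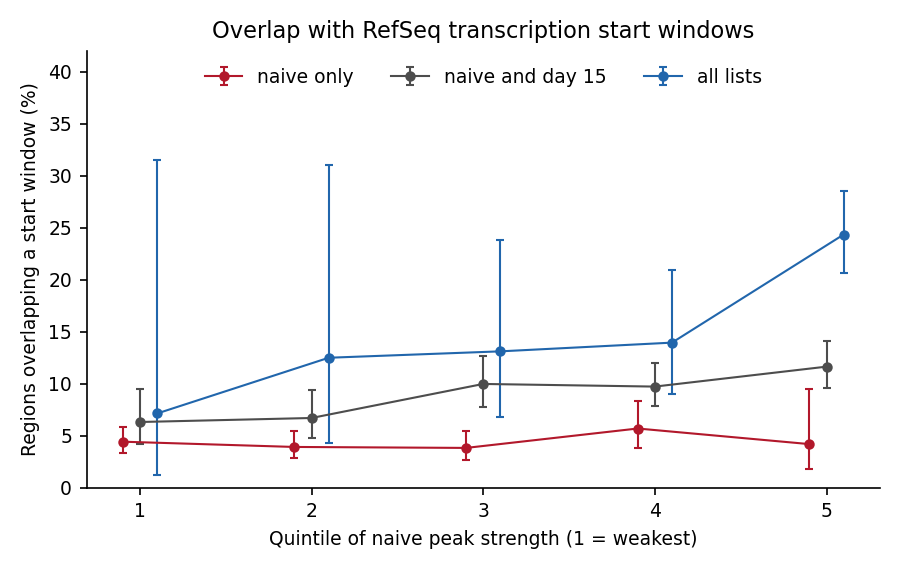
Share (%) of regions over 1000 bp from gene ends that overlap a RefSeq start window, by quintile of naive peak strength, for naive-only, naive and day 15, and all-list regions; bars are 95% Wilson intervals. Naive-only regions lie between 3.84% and 5.70% in every quintile, and regions in all lists reach 24.3% in the strongest.

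Base composition was also set beside that of other windows. The members touched 150 windows, with a median GC content of 60.2%. CpG was over 0.6 of the number that base composition predicts in 90 of the 150 (52.0% to 67.5%). That share was 70.4% (65.2 to 75.1) in 321 windows with a naive and day 15 region, 85.5% (79.4 to 90.1) in 166 windows with a region in every list, and 35.8% over all 32817 windows. The member interval overlapped that of naive and day 15 windows and lay below that of every-list windows. CpG-rich starts belong mostly to genes used in many cell types, and CpG-poor starts mostly to genes of particular tissues.

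Motif matches in these windows were few. PU.1 (GAGGAAGT) matched in 8 of the 150 member windows (5.33%, 2.73 to 10.2), against 4.67%, 2.41% and 3.20% in naive and day 15, every-list and all windows. C/EBP (TTGCNNAA) matched in 8.67%, against 12.1%, 10.2% and 10.8%. AP-1 (TGANTCA), bound by Fos and Jun, matched in 5.33%, against 4.05%, 9.04% and 7.81%. For these 3 motifs the member interval covers the share over all windows. The KLF and SP motif GGGGCGGGG matched in 20.7% (15.0 to 27.8) of member windows, against 61 of 321, 21.1% and 11.4%. It was more frequent in open windows of each class than over all windows. Its letters are all G or C, and the open windows were richer in these. Median GC was 60.2%, 60% and 64% in member, naive and day 15, and every-list windows, against 52.7% over all. The part of base composition in the motif's share was not tested. NF-kB (GGGNNTTCC) matched in 9.33%, the E-box (CACGTG) in 8.67% and the nuclear receptor motif (AGGTCA) in 12.7%, against 5.82%, 7.15% and 16.3% of all windows. The DR1 element, to which PPARG binds with RXR, had no match in the 150 and 13 over all 32817 windows. The Maf motif (TGCTGANNN) matched in 19.3% of member windows and in 19.3% of all windows. Searches covered both strands, and a Maf match can overlap an AP-1 match.

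Most members were far from any tumour peak. A day 15 peak lay within 1 kb of 201 members (6.33%, 5.53 to 7.23), within 5 kb of 549 (17.3%) and within 10 kb of 952 (30.0%). The median gap to the nearest day 15 peak was 24262 bp and to the nearest day 30 peak 127072 bp. Another member lay within 10 kb of 414 members, and a naive distal region that kept a tumour peak within 10 kb of 514 (16.2%). Of the 3679 naive distal regions with a tumour peak, 526 (14.3%) had a member and 694 (18.9%) another persisting region at that distance. At 50 kb, 35.4% of members had another member and 39.6% a persisting region nearby. Of the persisting regions, 38.4% had a member and 48.6% another persisting region at 50 kb. The pools differ in size (3176 members and 3679 persisting regions), so these shares do not say which kind members stood closer to.

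The X chromosome held a larger share of members than the autosomes. On the X 82 of 124 naive regions away from gene ends were members (66.1%, 57.4 to 73.9), against 3094 of 6731 on autosomes (46.0%, 44.8 to 47.2). Single autosomes ranged from 42.3% (chromosome 13) to 52.8% (chromosome 14), so the X lay outside their range. At equal pileup the X was above the autosomes in the classes from 6 to 19 tags, with 21 of 21 against 78.7% at 6 to 9 tags and 22 of 26 (84.6%, 66.5 to 93.9) against 49.3% at 13 to 15. The intervals overlapped at 10 to 12 tags (75.6% against 66.9%) and at 16 to 19 (40.0% against 31.6%). At 20 tags or more, 0 of 16 X regions and 8.61% of autosomal ones were members. At gene ends the X also had the larger share, 38.4% (78 of 203) against 25.4%. The X held 330 naive, 173 day 15 and 37 day 30 peaks. The Y chromosome held 1, 0 and 0, and the sex of the mice in each group is not in the labels, so the number of X copies and the group cannot be told apart.

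**Figure D4:**
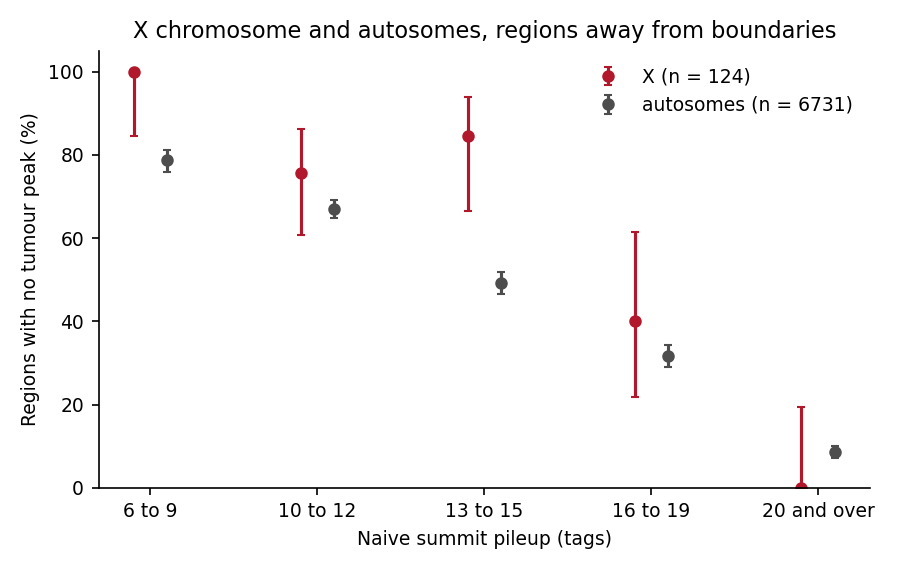
Share (%) of naive regions over 1000 bp from gene ends with no tumour peak, by naive summit pileup (tags), on the X chromosome (124 regions) and the autosomes (6731); bars are 95% Wilson intervals. The X stands higher up to 19 tags, most at 13 to 15 tags with 84.6% against 49.3%, and at 0% from 20 tags.

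Each member was given the protein-coding gene whose end was closest, up to 50 kb away. This gave 2407 members a gene and left 769 without one. Of 21887 protein-coding genes 1993 (9.11%) had a member, which is 56.4% of the 3536 genes with any naive region away from gene ends. Most, 1655, had 1 member, 275 had 2, 52 had 3, 9 had 4 and 2 had 5. At 1356 of the genes every naive distal region was a member, and at 637 members stood beside regions that kept a tumour peak. At those 637 the strongest persisting region was higher than the strongest member in 502, equal in 27 and lower in 108, with medians of 19 and 13 tags.

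The gene lists below were read by how many of their naive distal regions were members, beside 46.3% and a median naive pileup of 14 tags over all 6855. Regions of the same gene are not independent, so the intervals of the lists are descriptions and not tests. At the genes of alveolar macrophage identity 18 of 46 regions (39.1%, 26.4 to 53.5) were members, near 13 of the 30 genes. The 2 members inside Pparg lie over 50 kb from its ends and are not among the 18. The region past its end, with a peak in every list, is among the 46. Cebpb, a C/EBP factor of macrophages, had a member of 21 tags at chr2:167715147-167715476, while its neighbour at chr2:167723753-167724205 had 31, 30 and 19 tags in the naive, day 15 and day 30 lists. Cd9, a tetraspanin of the cell surface, had 1 member of 22 tags at chr6:125491381-125491742 among 5 naive distal regions. Lpl, the lipase that releases fatty acids from lipoproteins, had a member of 13 tags at chr8:68914527-68914909 and a boundary peak of 14 naive and 26 day 15 tags. Plet1, a surface protein of these cells, had 3 members of 16, 14 and 13 tags among 5 naive distal regions. Bhlhe40, a repressor needed for their self-renewal, had 2 members of 10 tags each beside 3 regions that kept a day 15 peak. Across this list members and persisting regions were mixed gene by gene, and its interval covered the share over all regions.

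At 25 general macrophage and myeloid genes 14 of 30 regions (46.7%, 30.2 to 63.9) were members, the same share as over all regions to within its interval. Runx1, a factor of blood cell formation, was the nearest gene of 3 members. Spi1, which encodes PU.1, had 1 member of 15 tags at chr2:91096557-91096907 and a boundary peak of 14 naive and 19 day 15 tags. Zeb2, a factor of macrophage identity, had a member of 18 tags at chr2:44981727-44981964. The member near Cebpa had 12 tags and stood 19.2 kb from a boundary region of 38, 46 and 22 tags in the naive, day 15 and day 30 lists.

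Efferocytosis and scavenging genes, which clear dying cells and particles, had 8 members of 31 regions (25.8%, 13.7 to 43.2), beside 46.3% over all. Marco alone had 7 naive distal regions. Marco, a scavenger receptor, had members of 19 tags at chr1:120522568-120522814 and of 12 tags at chr1:120531770-120532055, and its other 5 naive distal regions each kept a day 15 peak. Elmo1, which links uptake receptors to the cytoskeleton, had a member of 18 tags at chr13:20092352-20092687, with a day 15 peak 1.58 kb away. Mertk, a receptor for dying cells, had a single member of 9 tags and boundary peaks in both the naive and day 15 lists (24 and 26 tags at the stronger). Megf10, an engulfment receptor, had a member of 12 tags.

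Lysosome and phagosome genes stood at the other end: 16 of their 19 naive distal regions (84.2%, 62.4 to 94.5) were members, near 10 of 22 genes. The 16 were weak, with a median of 10.5 tags, and all 19 regions had a median of 13. Tfeb, the transcription factor that switches on lysosomal genes, had 3 members and no other naive distal region. The strongest of them, chr17:47768699-47769056, reached 28 tags, a fold of 8.33, inside the gene and 23.4 kb from its nearer end, with 15 and 7 tags at the others. Only 11 members of all had 25 tags or more. Both naive boundary peaks of Tfeb persisted at day 15, with 14 and 15 naive against 22 and 17 day 15 tags.

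The lysosomal proteases had the other strong members of that list. Ctsz had 22 tags at chr2:174436154-174436598. Ctsd had 20 tags at chr7:142398095-142398361 and 16 at chr7:142403657-142403889, and between them lay a region of 16 tags in both the day 15 and day 30 lists and none in the naive list. Ctsb had members of 11 and 10 tags and a boundary peak in the naive list alone. The proton pump subunit Atp6v1c1, the membrane protein Lamp2 and the hydrolase Hexa had weaker ones of 9 or 10 tags. At gene ends 18 of the 22 genes had a peak in the naive list, 18 in the day 15 list and 5 in the day 30 list. The list rests on 19 regions, Ctsb, Ctsd and Atp6v0d2 also belong to other lists, and no test was made over the 14 lists plotted.

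**Figure D5:**
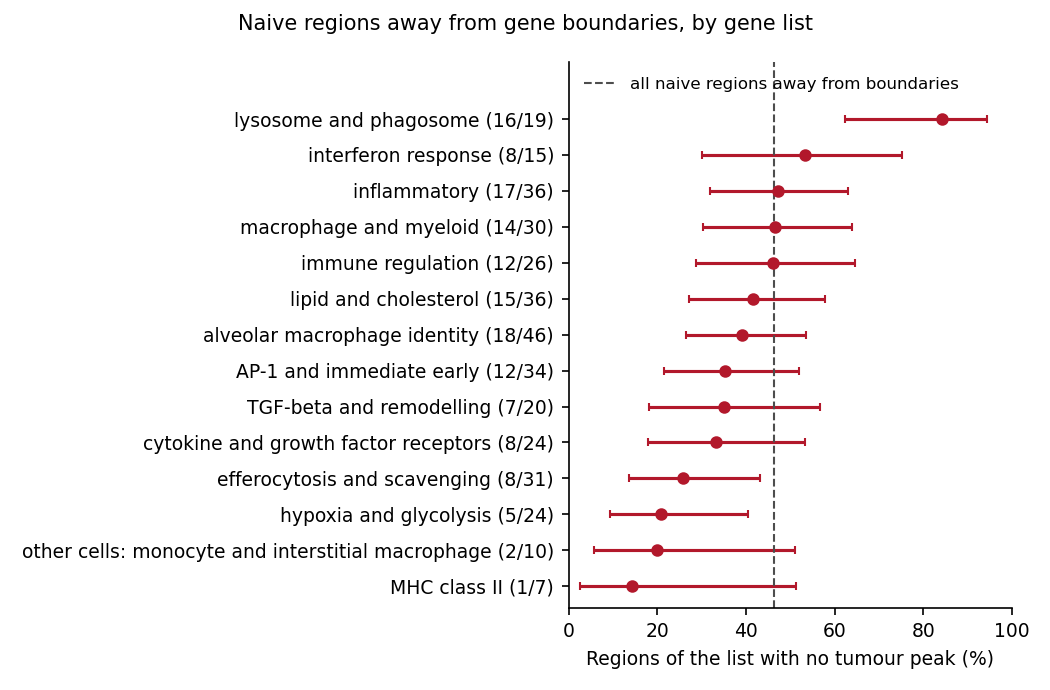
Share (%) of each list's naive regions over 1000 bp from gene ends that had no tumour peak, for the 14 lists with 7 or more such regions, with members and regions in brackets; bars are 95% Wilson intervals and the dashed line marks 46.3%. Lysosome and phagosome genes stand highest with 84.2%, and MHC class II genes lowest with 14.3%.

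Lipid and cholesterol genes had 15 members of 36 regions (41.7%, 27.1 to 57.8). Npc1, which exports cholesterol from lysosomes, and Cpt1a, which takes fatty acids into mitochondria, had 3 members each and no other naive distal region. The members at Npc1 had 17, 11 and 9 tags, and its boundary peak had 25 naive and 27 day 15 tags. Cpt1a had 16, 14 and 9 tags. Insig1, a sterol sensor that holds back lipid synthesis, had a member of 18 tags at chr5:28037650-28038032, 92 bp from a day 15 peak. Abca1, which exports cholesterol from macrophages, had 1 member of 12 tags beside 3 regions that kept a day 15 peak. MHC class II genes, which present antigen to CD4+ T cells, had 1 member of 7 regions (14.3%, 2.57 to 51.3), a region of 15 tags in Cd74, the chain that chaperones class II molecules. A boundary peak of 22 tags at Cd74 was in the day 15 list alone, 2.03 kb from that member.

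Inflammatory genes had 17 members of 36 regions (47.2%, 32.0 to 63.0). Nfkbia and Tnfaip3, both brakes on NF-kB, had members of 21 tags at chr12:55466888-55467171 and of 16 tags at chr10:19033761-19034010, and their boundary regions persisted. Cxcl1, a chemokine for neutrophils, had 3 members of 20, 13 and 10 tags and no other naive distal region, and its boundary peak of 18 tags was in the day 15 list alone. Ccl2, which attracts monocytes, had 3 members of 15, 13 and 6 tags and 1 region that kept a day 15 peak. Naive-only distal regions and a boundary peak of the day 15 list alone thus stood together at Cxcl1. Its member of 20 tags lay 741 bp from another day 15 peak.

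Interferon genes had 8 members of 15 regions (53.3%, 30.1 to 75.2). Downstream of Ifnar1, a chain of the type I interferon receptor, members of 18 and 14 tags at chr16:91522106-91522412 and chr16:91522549-91522774 were followed by a day 15 peak of 17 tags at chr16:91523015-91523283. Irf2, a repressor of interferon genes, had a member of 13 tags at chr8:46811314-46811617. Cytokine and growth factor receptors had 8 of 24 (33.3%, 18.0 to 53.3). Il6ra, the IL-6 receptor, had a member of 18 tags at chr3:89905515-89905856 and beside it a region of 20 naive and 24 day 15 tags. Il1rap and Il1r1, the chains of the IL-1 receptor, had members of 13 and 11 tags.

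Immune regulation genes had 12 members of 26 regions (46.2%, 28.8 to 64.5), near 11 of 19 genes. Cd86, a costimulator of T cells, had a member of 17 tags at chr16:36626877-36627228. Havcr2, the inhibitory receptor TIM-3, had a member of 17 tags at chr11:46461435-46461780 and, beside it, a region of 13 naive and 18 day 15 tags. Vsir, the checkpoint protein VISTA, had members of 19 tags at chr10:60349074-60349302 and of 16 tags at chr10:60351796-60352082. A boundary peak of 20 tags at Vsir was in the day 15 list alone, 2.08 kb from the stronger member. Cd274 and Pdcd1lg2, the ligands of PD-1, had members of 7 and 13 tags, and Pdcd1lg2 kept 2 stronger regions of 29 and 28 tags in every list. No gene of this list had more than 2 members.

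TGF-beta and remodelling genes had 7 members of 20 regions (35.0%, 18.1 to 56.7). Skil, a repressor of SMAD signalling, had a member of 23 tags at chr3:31093750-31093982, 1.08 kb from the gene and 590 bp from a day 15 peak. Smad4, the shared SMAD of the pathway, had one of 14 tags. Mmp12, the macrophage elastase, had a member of 12 tags at chr9:7337206-7337433, 56 bp from a region of 17 naive and 16 day 15 tags. AP-1 and immediate early genes had 12 of 34 (35.3%, 21.5 to 52.1). Fosb, a subunit of AP-1, had a member of 22 tags at chr7:19320034-19320343. Klf6, an early response factor, had members of 18 tags at chr13:5864268-5864467 and of 15 tags at chr13:5845705-5845977 on either side of a boundary region of 36, 38 and 23 tags. Bach1, a repressor of haem and antioxidant genes, had 3 members of 14, 13 and 9 tags and no other naive distal region.

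Hypoxia and glycolysis genes had 5 members of 24 regions (20.8%, 9.24 to 40.5), beside 46.3% over all. The 24 had a median naive pileup of 16 tags. Pfkfb3, which raises glycolytic flux, had members of 12 tags at chr2:11482703-11483153 and of 11 tags at chr2:11513193-11513401. Bnip3l, a mitophagy receptor, had one of 10 tags.

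Marker genes of other cell types had few naive distal regions at all. Monocyte and interstitial macrophage genes had 2 members of 10 regions, at Cx3cr1 and Nr4a1, each of 12 tags. T and NK cell genes had 2 of 3, of 16 tags at Klrb1c and 7 at Cd2. Lung epithelium and KP tumour genes had 2 of 4, both inside Cdh1, with 11 and 10 tags, and endothelium and fibroblast genes 1 of 2, with 15 tags inside Pdgfrb. Dendritic cell genes had 0 of 1, and B cell and neutrophil genes had no naive distal region. These 7 members were read from single peaks, and the part of other cells in them was not tested.

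The genes with most members, counted as the nearest protein-coding gene within 50 kb, were of varied function. Rnf217, a ubiquitin ligase gene, had 5 members and no other naive distal region, all inside the gene with 10 to 15 tags, the strongest at chr10:31519535-31519844. The closest of them was 206 kb from a day 15 peak. Filip1l also had 5, of 9 to 14 tags, where it overlaps Cmss1, and with the regions deeper inside it 6 of 10, the other 4 keeping a tumour peak. Akap7, an anchor of protein kinase A, had 4 of 5, up to 19 tags at chr10:25296780-25297309. Plpp3, a lipid phosphatase, had 4 of 5, with at most 13 tags. Mob3b had 4 of 5, with at most 16 tags, and with the regions deeper inside it 5 of 9, the other 4 keeping a tumour peak.

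Ninj2, Snx10 and Plxnc1 had 4 members each and no naive distal region with a tumour peak, and Plxnc1 held a further member of 11 tags inside it, over 50 kb from its ends. Ninj2, an adhesion protein, had 8 to 13 tags over its 4. Snx10, a sorting nexin of endosomes needed for bone resorption by osteoclasts, had 16, 12, 9 and 9 tags, all inside the gene. Plxnc1, a receptor for semaphorins, had 9 to 13 tags over the 4, of which the closest was 139.6 kb from a day 15 peak. Nfatc1, the calcium-regulated factor that drives osteoclast formation, had 4 of 7, of 16, 16, 16 and 11 tags. Cttnbp2nl had 4 of 5, with 18 tags at chr3:105055762-105056029.

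Of the 12 strongest members by p-value, 3 lay inside a protein-coding gene, and distances given here are to ends of protein-coding genes. A region of 24 tags and fold 11.8 at chr1:16798294-16798652 lay 88.7 kb from Ly96, which encodes MD-2, the partner of TLR4 in sensing lipopolysaccharide, and 109 kb from the nearest day 15 peak. A region of 23 tags and the highest fold, 12, at chr9:7525974-7526526 lay 15.7 kb downstream of Mmp10, a secreted metalloproteinase. A region of 24 tags at chr5:74126480-74126835 lay 58.1 kb upstream of Usp46, a deubiquitinase. A region of 20 tags at chr10:16996826-16997149 lay 726 kb from Cited2, a transcriptional coregulator and 521 kb from a day 15 peak. These 4 reached the naive pileups at which most regions persisted.

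The other leading members had 19 to 24 tags. Those inside a gene were in Adk, adenosine kinase (21 tags, chr14:21278321-21278642), in Tox, a chromatin factor of lymphocytes (20 tags, chr4:6924679-6925080), and in Fgd4, an exchange factor for CDC42 (21 tags, chr16:16473462-16473843). The Tox region was 541 kb from the nearest day 15 peak. Outside genes stood regions near Phlda1 (24 tags), Vmn2r126 (23 tags), 1700012A03Rik (23 tags), Asap2 (21 tags) and the X-linked Zxdb (19 tags). The nearest protein-coding gene in these cases was between 38.3 kb and 240 kb away.

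At the weak end, members near Cish, a brake on cytokine signalling, Spocd1 and Tnfsf18, a TNF family ligand, had 6 tags each and folds of 3.54 to 3.61. For contrast, the strongest naive distal region in every list had 122, 170 and 95 tags in the naive, day 15 and day 30 lists. Its nearest protein-coding gene, Lrrc4c, was 1034.8 kb away. Its naive local background, 8.94, was the highest of all naive distal regions. The next strongest in every list were in Pex2 (92, 63 and 37) and in Uggt2 (55, 43 and 16). The strongest naive regions with a day 15 peak and none at day 30 were in Snapc3 (39 naive and 26 day 15 tags) and Rgmb (48 and 27) and near 4930503L19Rik (38 and 27). Each of these 6 had a higher naive pileup than any member.

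Genes nearest to members that had a naive boundary peak also had a tumour boundary peak at shares close to those of other genes. The tumour peak could lie at either end of the gene and did not have to overlap the naive one. Of 1993 genes with a member 932 (46.8%) had a naive boundary peak, and 728 of those (78.1%, 75.3 to 80.6) had one at day 15. The day 15 share was 77.4% (74.1 to 80.3) over 703 genes whose distal regions all kept a tumour peak and 80.0% (79.0 to 81.0) over 5959 genes with no naive distal region. At day 30 the shares were 36.9%, 32.3% and 36.9%, on 932, 703 and 5959 genes. In the weakest quintile of naive boundary peaks the day 15 shares were 47.0%, 47.6% and 44.6%, and in the strongest 100%, 99.1% and 99.6%. The 3 intervals overlapped at either time over all such genes.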

How the data were processed

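ATAC-seq was done on 11 samples of sorted mouse alveolar macrophages, in 3 groups, and 1 peak list was deposited for each group. Whether samples were pooled before calling, and read filters, are not given in the sources used here. Samples numbered 4, 4 and 3, where the series' own description mentions triplicates. The submitters' processing notes name Bowtie2 2.3.4.1, MACS2 2.1.1 and the build mm10. The deposited columns have no header: the authors' score (the whole part of 10 times the −log10 q in nearly all peaks), the fold over background (a ratio) and −log10 values of p and q were identified from the values. All are the authors' and were used to rank and describe peaks within a list.

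Pileup and local background were solved from the fold, read as (pileup + 1)/(background + 1), and the Poisson p, within 0.001 on the −log10 scale for every peak. The commonest background gave the depth, with 200 bp tags. On simulated peaks 100% of pileups came back. Regions were merged and set beside a RefSeq table of GRCm38.p6 with 49980 genes, 21887 protein-coding, without exons, and beside 32817 RefSeq start windows, which lack some genes. Intervals are 95% Wilson intervals. Coordinates are 1-based. Python 3.11.15 was used with pandas 2.3.3 and scipy 1.17.1.

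The members, the 20 gene lists (352 of 354 genes in the annotation) and the 17 motifs were chosen with earlier results of these data known. Named were the 12 strongest members, up to 3 strongest members of each list, the 10 genes with most members, the 3 weakest members and the 3 strongest regions of each persisting class. The other genes described were chosen after their values were seen, and 1 gene of the lists is not reported by name here. Alternatives changed the distance, the join, the gene set, the q threshold, the list lengths and the reach. No genome was used, so motifs in other regions and exon positions were not analysed here.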

Additional observations from a re-analysis of the deposited data

How the results depend on the processing

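Of 65 alternative values over 7 results, 51 stayed within their counting interval or, for counts, within 1.5 times the main value. With boundaries of 500, 2000 or 5000 bp the median distance to a protein-coding gene end, 18415 bp, became 16817.5, 20588 or 25617 bp, by construction of the rule. At 5000 bp the genes with a member fell from 1993 to 1315. Against protein-coding genes only, 56.2% of members lay inside one. Joining peaks within 500 bp gave 45.0% members in place of 46.3%. A naive −log10 q of at least 3 gave 45.1%, and of at least 5 gave 38.4% and 2044 members. With each list cut to its 3352 strongest peaks, 274 members (31.8%) near 195 genes were left. A day 15 peak lay within 5 kb of 17.3%, against 6.33% within 1 kb. In the weakest quintile of naive boundary peaks, an alternative chosen after seeing the data, 47.0% of member genes had a day 15 boundary peak, against 78.1% over all. Counts thus rest on weak naive peaks, and there is no replicate value behind any of them. Motif windows around summits were not run, having no genome. No paired analysis was possible because each group has 1 peak list and no sample values, which also left no replicate to leave out.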
